A study of Mus musculus with 3 samples.

Results

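The cluster of miR-322, miR-503, miR-351, miR-542 and miR-450 is a group of microRNA (miRNA) hairpins that lie close together on one strand of the mouse X chromosome. Its members were taken by name from the deposited catalogues of small RNAs, as every mature or hairpin entry named miR-322, miR-503, miR-351, miR-542, miR-450a or miR-450b with any arm. The catalogue writes them with the prefix mmu, as in mmu-miR-322-5p, mmu-miR-322-3p, mmu-miR-351-5p, mmu-miR-542-3p and mmu-miR-503-5p, which is left out below. This gave 12 identifiers of the 805 that had a mature or hairpin entry. Of the 13 mature names of these miRNAs in RefSeq, 1 had no count of either type in any library, miR-450a-1-3p. The mature entries numbered 11 of 604, and the hairpin entries 12 of 743. Counts came from EVs (extracellular vesicles) isolated at postnatal day 7 (PND7) from the testes of C57/BL6 male mice, with 10 mice pooled for each of 3 libraries. The decapsulated testes were digested with Accumax, EVs were purified from the supernatant by an affinity kit and ultracentrifugation, and they were treated with proteinase K, PMSF and RNase A before RNA extraction. Although the titles of the samples hold the word treated, all 3 libraries belong to a single group, and there was no library of another age, of testis tissue or of untreated EVs.

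An miRNA hairpin is cut from a longer transcript and gives a duplex of a 5p and a 3p strand, one of which is usually loaded onto an Argonaute protein while the other is degraded. The loaded strand finds its target mRNAs mainly through its seed, bases 2 to 8 counted from its 5′ end. miR-322, the rodent counterpart of a human miRNA that carries another number, and miR-503 are known as relatives of the miR-15 family, which restrains cell cycle genes such as the D-type cyclins, and both have been studied in muscle differentiation. miR-351 has the seed of the miR-125 family, the mammalian counterpart of the worm miRNA lin-4. The EVs came from the whole testis, so the counts do not show which cells released them, and fewer EVs with an miRNA cannot be told apart from fewer copies in each EV.

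The 7 hairpin genes of the cluster span 6353 bases of the minus strand of the X chromosome in GRCm38 (GENCODE vM21), from Mir322 at chrX:53054255-53054349 to Mir450b at chrX:53047997-53048078. Read in the direction of transcription, Mir503 begins 295 bases after the start of Mir322, Mir351 996 bases after it and Mir542 4862 bases after it. Mir450-2, Mir450-1 and Mir450b follow at 5982, 6105 and 6271 bases. None of the 7 overlaps another annotated gene. The closest annotated gene upstream, the non-coding C430049B03Rik on the same strand, ends 696 bases before Mir322. The hairpins that held the largest part of the counts and had a sequence in the RefSeq table (GRCm38.p6) are shown here 5′ to 3′ because the results turn on which strand of each was counted. Capitals mark the annotated 5p and 3p mature strands.
Mir322, chrX:53054255-53054349, minus strand: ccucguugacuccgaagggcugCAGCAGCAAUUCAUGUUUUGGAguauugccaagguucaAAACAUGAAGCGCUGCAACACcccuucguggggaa
Mir503, chrX:53053984-53054054, minus strand: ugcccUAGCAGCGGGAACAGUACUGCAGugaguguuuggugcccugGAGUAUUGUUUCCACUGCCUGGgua
Mir542, chrX:53049403-53049487, minus strand: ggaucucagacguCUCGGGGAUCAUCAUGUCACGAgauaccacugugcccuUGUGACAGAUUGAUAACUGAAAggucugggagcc

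The mature strands of the same hairpins and of miR-351 are listed with the seed in capitals, since the seed decides which other miRNAs each can be grouped with.
miR-322-5p: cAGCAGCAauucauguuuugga
miR-322-3p: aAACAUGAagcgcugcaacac
miR-503-5p: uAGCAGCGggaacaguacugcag
miR-503-3p: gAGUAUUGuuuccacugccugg
miR-351-5p: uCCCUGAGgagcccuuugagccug
miR-351-3p: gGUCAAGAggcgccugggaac
miR-542-5p: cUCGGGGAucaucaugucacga
miR-542-3p: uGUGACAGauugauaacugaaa
No seed is shared within this list. The miR-15 family seed AGCAGCA is that of miR-322-5p, and the seed of miR-503-5p, AGCAGCG, has another last base.

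The cluster was a small part of the miRNA cargo. Its mature entries summed to 6927 counts in replicate 1, 8865 in replicate 2 and 7136 in replicate 3, out of 870967, 1005836 and 966468 mature counts. This was 0.805% ± 0.0720 (SD, n = 3) of the mature counts, and the highest library exceeded the lowest 1.19-fold. Hairpin entries of the cluster held 1.49% ± 0.0762 (SD, n = 3) of all hairpin counts. All levels below are given as CPM, the counts scaled to a total of 1000000 mature (or hairpin) counts in each library. The members are 21 to 24 bases long and were not scaled by length.

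Among the mature entries, miR-322-5p, miR-351-5p, miR-542-5p and miR-503-3p together held 94.8% ± 0.455 (SD, n = 3) of the cluster's counts. miR-322-5p had 3219, 3718 and 3240 CPM in replicates 1, 2 and 3, with a mean of 3392 ± 282 (SD, n = 3), and ranked 31 of 604. miR-351-5p had 1956, 1508 and 1556 CPM, a mean of 1674 ± 246 and rank 52. miR-542-5p followed with 1286, 1672 and 1142 CPM, a mean of 1367 ± 274 and rank 57. miR-503-3p had 1115, 1447 and 1030 CPM, a mean of 1197 ± 220 and rank 63. miR-322-5p was above the other 3 in every library, whereas the range of miR-542-5p overlapped those of miR-351-5p and miR-503-3p. The exact binomial (Clopper-Pearson) 95% interval of any of these values reached at most 6.49% of the value to either side.

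**Figure D1:**
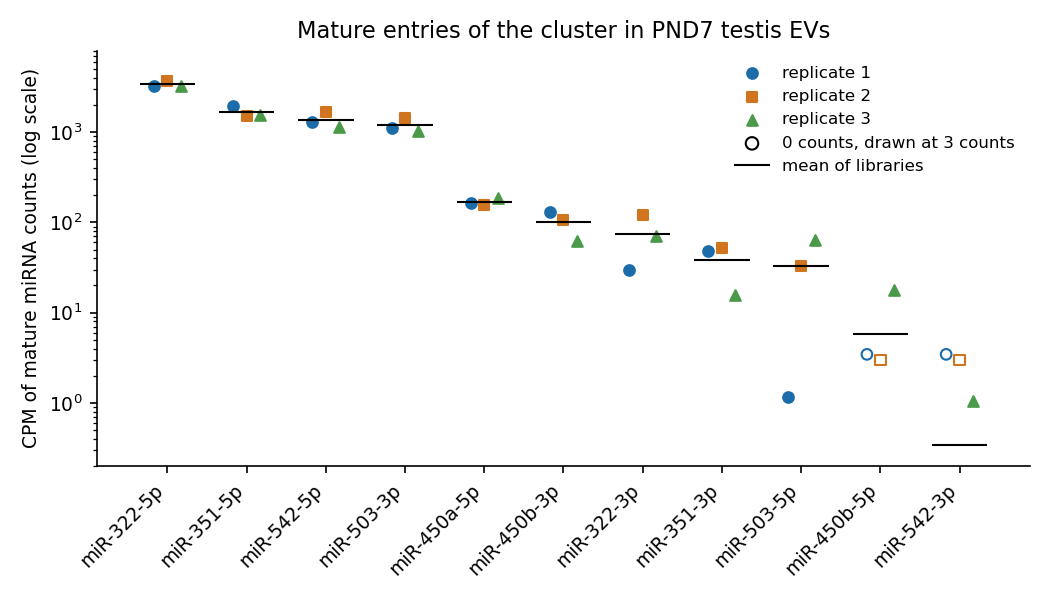
CPM of the mature counts (log scale) for the 11 mature entries of the cluster, with 1 point per library, a line at the mean of the 3 libraries (a 0 enters the mean as 0), and open symbols for libraries with 0 counts, drawn at the level of 3 counts. The 4 leading entries lie between 1030 and 3718 CPM, and miR-450a-5p, the next, lies between 157 and 185.

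The remaining mature entries were lower. miR-450a-5p had 165, 157 and 185 CPM in replicates 1, 2 and 3 and miR-450b-3p had 132, 105 and 62.1. miR-322-3p had 29.9, 121 and 70.4 CPM, and miR-351-3p had 48.2, 51.7 and 15.5. miR-503-5p had 1, 33 and 62 counts. miR-450b-5p had 17 counts in replicate 3 and 0 in the others, and miR-542-3p had 1 count in replicate 3 and 0 in the others. At this depth a count of 0 allows up to 3.44 CPM in replicate 1, 2.98 in replicate 2 and 3.10 in replicate 3 (3 counts of the mature total). Intervals and floors cover counting error only, because copies made by PCR were not told apart. At least 10 counts in every library were found for 8 of the 11 mature entries of the cluster, and for 45% of all mature entries.

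Within the libraries, the order of the leading entries was tested on the log2 ratio of their counts (two-sided sign-flip permutation test, exact over the libraries, with a smallest possible p of 0.25 for 3 libraries, so that no ratio here can pass 0.05). miR-322-5p exceeded miR-351-5p by 1.03 ± 0.29 on the log2 scale (SD, n = 3; 3 of 3 libraries; exact p = 0.25, 0.30 after Benjamini-Hochberg adjustment over 6 pairs). Against miR-542-5p and miR-503-3p the log2 ratio of miR-322-5p was 1.33 ± 0.18 and 1.51 ± 0.15 (SD, n = 3; 3 of 3 libraries each). miR-351-5p and miR-542-5p could not be ordered, since the log2 ratio was 0.61, -0.15 and 0.45 in replicates 1, 2 and 3. The smallest spread was that of miR-542-5p over miR-503-3p, at 0.19 ± 0.03 (SD, n = 3; 3 of 3 libraries; exact p = 0.25, adjusted 0.30). In all, 5 of the 6 pairs had the same order in every library. These 6 pairs were chosen after the values were seen, and the same share over pairs of other mature entries was not computed. In the hairpin entries 4 of the 6 pairs kept the same order over the libraries, and miR-322-5p did not lead. There its mean log2 ratio was -0.42 ± 0.52 over miR-351-5p, above 0 in 1 of 3 libraries, and -0.15 ± 0.07 over miR-542-5p, below 0 in 3 of 3 (SD, n = 3 each; exact p = 0.25 for the latter, 0.375 after adjustment).

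The 5 members first listed for the cluster, those given above with their catalogue names, held 64.4% ± 3.01 (SD, n = 3) of the cluster's mature counts. All 10 pairs of this list were in the same order in every library, miR-322-5p above miR-351-5p, miR-322-3p, miR-503-5p and miR-542-3p (exact p = 0.25 for each pair, the smallest possible, and 0.25 after adjustment over the 10 pairs). The margin between miR-322-3p and miR-503-5p in replicate 3 was only 68 against 62 counts, and that between miR-503-5p and miR-542-3p in replicate 1 was 1 count against 0, which does not order them at this depth. With mature and hairpin counts summed, 8 of the 10 pairs kept an order. Mean levels in this list ran from 0.345 CPM for miR-542-3p to 3392 CPM for miR-322-5p. The share of pairs with a constant order among all mature entries was not computed, so the count describes these members only.

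Which strand was counted differed between hairpins. The strands are those of the catalogues' names, and the catalogues give no read sequences, so it could not be checked here that the 5p and 3p names were given to the right strands. In the mature entries, the 5p strand was above the 3p strand in every library for miR-322, miR-351, miR-542 and miR-450a, 4 of the 6 miRNAs, and the 3p strand was above for miR-503 and miR-450b. Over all 210 miRNAs with at least 10 mature counts from both arms together in every library, these shares were 53.8% for the 5p strand and 34.8% for the 3p strand. More than 90% of the counts were in the same strand in every library for 5 of the 6, against 70.5% of the 210, so one-sidedness as such was common among the miRNAs of these EVs. The hairpin entries gave the same 4 and 2 miRNAs, against 53.9% and 37.9% of 219, and again 5 of the 6 with more than 90% in 1 strand, against 69.9%. The exception was miR-450b in the mature and miR-503 in the hairpin entries.

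miR-542 was the most one-sided of the 4 abundant hairpins. Its 5p strand had 1120, 1682 and 1104 mature counts in replicates 1, 2 and 3, and its 3p strand 0, 0 and 1. In replicates 1 and 2 the 5p strand was therefore at least 373-fold and 561-fold higher, taking 3 counts as the floor of each library. In replicate 3 the ratio was 1104, with an exact 95% counting interval from 198 to 43645. The hairpin entries had the same order, with 1636, 2837 and 2139 counts for the 5p strand and 1, 0 and 0 for the 3p strand. On the log2 scale with a pseudocount of 0.5, the mature 3p over 5p ratio was -10.79 ± 1.13 (SD, n = 3; below 0 in 3 of 3 libraries; exact p = 0.25), a value that depends on the pseudocount because of the zeros. If the names are right, the strand that was nearly absent is the one with the seed GUGACAG in the hairpin shown above.

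For miR-503 the strand named 3p led. It had 971, 1455 and 995 mature counts in replicates 1, 2 and 3, and the 5p strand, the one with the seed close to that of the miR-15 family, had 1, 33 and 62. The 5p strand made up 0.103% (exact 95% interval 0.0026 to 0.572), 2.22% (1.53 to 3.10) and 5.87% (4.53 to 7.46) of the mature counts of both strands, and these intervals did not overlap. In the hairpin entries the 5p strand had 127, 106 and 60 counts, 13.2%, 7.99% and 6.88% of both strands. Replicate 1 thus had the lowest share of miR-503-5p in the mature entries and the highest in the hairpin entries.

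For miR-322 and miR-351 the 5p strand held nearly all mature counts. miR-322-3p made up 0.919%, 3.16% and 2.13% of both strands in replicates 1, 2 and 3, and the log2 ratio of miR-322-3p over miR-322-5p was -5.72 ± 0.91 (SD, n = 3; below 0 in 3 of 3 libraries; exact p = 0.25). miR-351-3p made up 2.41%, 3.31% and 0.987%. Both low strands had their highest mature share in replicate 2, whereas miR-322-3p was lowest in replicate 1 and miR-351-3p in replicate 3. Their hairpin shares were also highest in replicate 2, at 7.34% for miR-322-3p and 3.26% for miR-351-3p. There the lowest share of miR-322-3p was in replicate 3, at 2.73%, and that of miR-351-3p in replicate 1, at 2.30%.

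**Figure D2:**
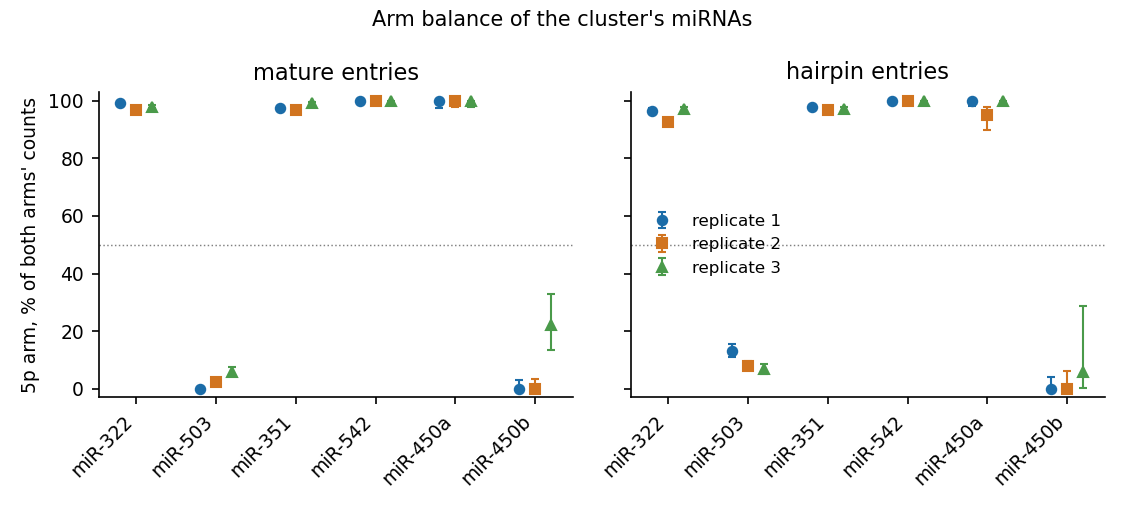
Percentage of the counts of both arms that fell on the 5p arm, for each miRNA of the cluster in the 3 libraries, for mature entries (left) and hairpin entries (right). Bars are exact binomial 95% intervals, which cover counting error only, and the dotted line marks 50%. miR-322, miR-351, miR-542 and miR-450a lie above 90% in both panels, and the highest mature value of miR-503 is 5.87%.

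The strands of the miR-450 hairpins resemble each other to different degrees. They are shown here with the seed in capitals because identity limits how far counts can be told apart.
miR-450a-5p: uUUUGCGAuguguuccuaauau
miR-450b-5p: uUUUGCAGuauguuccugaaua
miR-450a-1-3p: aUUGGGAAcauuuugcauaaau
miR-450b-3p: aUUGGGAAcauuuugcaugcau
miR-450a-2-3p: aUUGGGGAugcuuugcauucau
Mir450-1 and Mir450-2 encode the same miR-450a-5p, so its 144, 158 and 179 mature counts in replicates 1, 2 and 3 cannot be divided between them. miR-450b-3p differs from miR-450a-1-3p in 2 of 22 bases and has the same seed. The other strands compared were less alike, each pair with different seeds. Position by position, miR-450a-5p was identical to miR-450b-5p at 15 of 22 bases, and miR-450a-1-3p to miR-450a-2-3p at 16 of 22. The catalogues list miR-450b-3p with 115, 106 and 60 mature counts and do not list miR-450a-1-3p, and how reads that fit both were assigned is not given in the sources used here. miR-450a-2-3p had no mature counts, and 7 hairpin counts in replicate 2 only. miR-450b was the one miRNA of the cluster with under 90% of its mature counts in 1 strand in a library, at 77.9% for the 3p strand in replicate 3 (exact 95% interval 67.0 to 86.6).

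Along the locus, the level did not follow the order of the hairpins over the first 4. With both strands summed, Mir322 had 3466 ± 325 CPM, Mir503 1230 ± 217, Mir351 1712 ± 253 and Mir542 1367 ± 274 (SD, n = 3 each). Mir503, which begins closest to Mir322, had the lowest mean of these 4, and its range overlapped that of Mir542. The 3 hairpins at the far end had less, with 169 ± 14.5 CPM for the pair that encodes miR-450a and 106 ± 26.2 for Mir450b (SD, n = 3 each). In each library every miR-450 value was below every value of the other 4 hairpins.

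**Figure D3:**
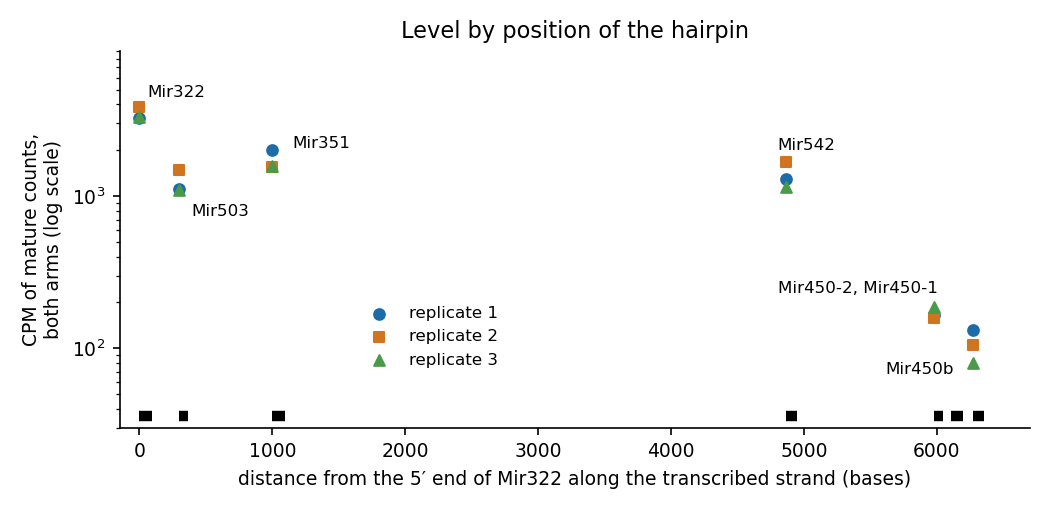
CPM of the mature counts of both arms (log scale) against the distance of each hairpin from the 5′ end of Mir322 along the transcribed strand, with 1 point per library and black blocks for the 7 hairpins. Mir450-2 and Mir450-1 share 1 set of points at 5982 bases because they encode the same miR-450a-5p, and all miR-450 points lie below those of the other hairpins.

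The catalogues count an identifier as mature, as hairpin or as both, and the sources used here do not define how a read came to be one or the other. The split differed between members. miR-322-5p had 2804, 3740 and 3131 mature and 1465, 2449 and 2030 hairpin counts in replicates 1, 2 and 3, and 37.7% ± 2.97 of both types were hairpin counts (SD, n = 3). For miR-503-3p this share was 45.6% ± 0.607. For miR-351-5p, with 2930, 2431 and 2448 hairpin counts, it was 62.2% ± 0.868, and for miR-542-5p 62.7% ± 3.30 (SD, n = 3 each). The first pair was thus below 50% and the second pair above it in every library. Of the 9 members with at least 10 counts of both types together in every library, hairpin counts were higher in every library for 3, miR-351-5p, miR-351-3p and miR-542-5p, against 36.7% of 395 identifiers. Mature counts were higher in every library for 3, miR-322-5p, miR-503-3p and miR-450b-3p, against 35.4% of the 395. Both shares are close to those of all identifiers. Of the 5 first listed members only miR-351-5p had more hairpin than mature counts in every library, and 3 of the 5 did so without replicate 3. miR-503-5p had the widest split, with 99.2%, 76.3% and 49.2% hairpin counts.

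**Figure D4:**
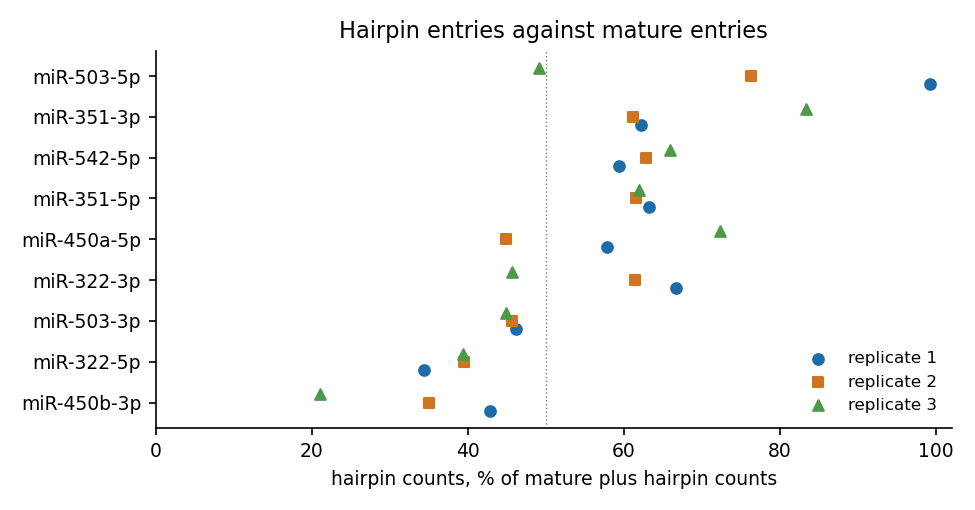
Hairpin counts as a percentage of mature plus hairpin counts for the 9 members with at least 10 counts of both types together in every library, with 1 point per library and a dotted line at 50%. miR-503-3p and miR-351-5p have the narrowest spread, with an SD of 0.607 and 0.868 percentage points, whereas those of miR-503-5p run from 49.2% to 99.2%.

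The seed of miR-322-5p is shared by 5 other mature miRNAs of the catalogues that have a sequence in RefSeq (442 of the 604 mature entries matched that table). Each is encoded on another chromosome. They are shown with the seed in capitals.
miR-322-5p: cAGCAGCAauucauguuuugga
miR-16-5p: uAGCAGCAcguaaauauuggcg
miR-15a-5p: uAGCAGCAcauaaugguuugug
miR-15b-5p: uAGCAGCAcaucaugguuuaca
miR-195a-5p: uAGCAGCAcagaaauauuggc
miR-497a-5p: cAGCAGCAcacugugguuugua
Together these entries had 12824 ± 1386 CPM (SD, n = 3), and miR-322-5p made up 26.2%, 25.8% and 27.5% of them in replicates 1, 2 and 3. Its mean share of 26.5% ± 0.892 was second to the 64.2% ± 1.83 of miR-16-5p (SD, n = 3 each). miR-16-5p, the best known member of the family, had 8244 ± 1114 CPM, and the log2 ratio of miR-322-5p over it was -1.28 ± 0.07 (SD, n = 3; below 0 in 3 of 3 libraries; exact p = 0.25, 0.25 after adjustment over 5 ratios to seed relatives). In the hairpin entries this ratio was -0.38 ± 0.23 (SD, n = 3; below 0 in 3 of 3 libraries). miR-322-5p exceeded miR-15b-5p, which had 808 ± 192 CPM, by 2.09 ± 0.42 on the log2 scale (SD, n = 3; 3 of 3 libraries; exact p = 0.25). miR-15a-5p, miR-195a-5p and miR-497a-5p had 205 ± 79.1, 92.4 ± 18.5 and 81.9 ± 18.0 CPM (SD, n = 3 each), each under miR-322-5p in every library. Over the hairpin entries of the same miRNAs, miR-322-5p made up 33.8% ± 2.48 (SD, n = 3).

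miR-351-5p shares its seed with miR-125a-5p and miR-125b-5p, which are encoded on other chromosomes.
miR-351-5p: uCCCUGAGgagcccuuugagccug
miR-125a-5p: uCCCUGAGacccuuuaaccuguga
miR-125b-5p: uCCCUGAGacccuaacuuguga
Compared position by position from the 5′ end, miR-351-5p was identical to miR-125b-5p at 10 of 22 bases and to miR-125a-5p at 10 of 24. No gaps were allowed, so a stretch shifted by some bases was not counted as identical. miR-351-5p held 38.0%, 30.2% and 33.5% of the mature counts of the 3 miRNAs in replicates 1, 2 and 3, with a mean of 33.9% ± 3.92, between miR-125b-5p at 49.9% ± 3.78 and miR-125a-5p at 16.2% ± 1.60 (SD, n = 3 each). The order was the same in every library. The log2 ratio of miR-351-5p over the sum of the other two was -0.97 ± 0.25 (SD, n = 3; below 0 in 3 of 3 libraries; exact p = 0.25, adjusted 0.25). Against miR-125a-5p alone the direction depended on the type of entry, with a log2 ratio of 1.06 ± 0.24 in the mature and -1.02 ± 0.45 in the hairpin entries (SD, n = 3 each; 3 of 3 libraries each), since miR-125a-5p had 671, 782 and 809 mature but 4176, 6207 and 5608 hairpin counts.

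**Figure D5:**
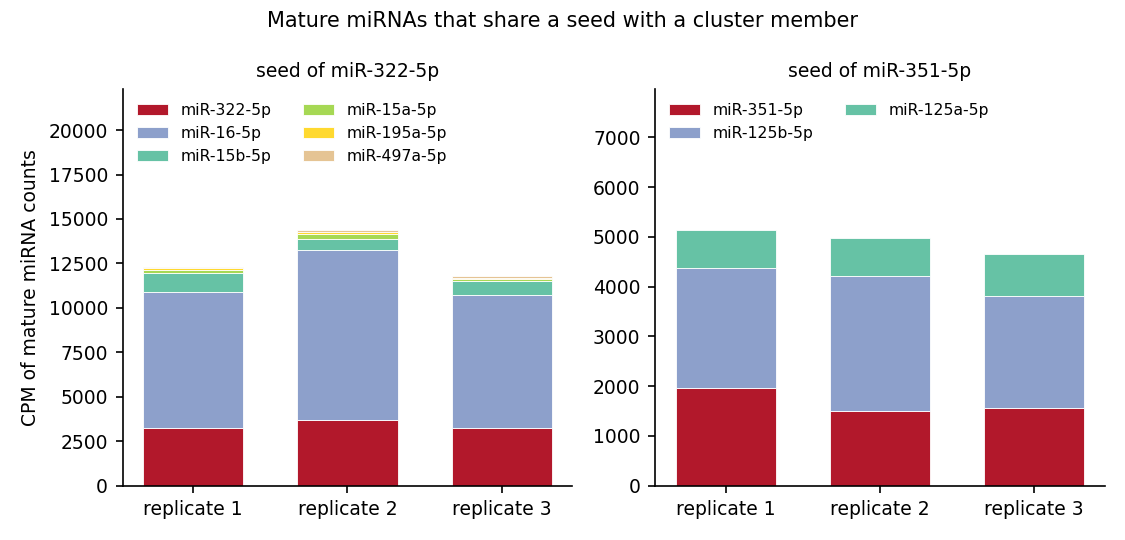
CPM of the mature counts in each library, stacked over the miRNAs that share the seed of miR-322-5p (left) and of miR-351-5p (right), with the member of the cluster in red at the base of each bar. miR-322-5p makes up between 25.8% and 27.5% of its bars and miR-351-5p between 30.2% and 38.0% of its own.

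Between libraries, the abundant members did not all move together. miR-322-5p, miR-542-5p and miR-503-3p were highest in replicate 2, miR-351-5p was highest in replicate 1, and miR-450a-5p was highest in replicate 3. The highest library exceeded the lowest 1.15-fold for miR-322-5p, 1.30-fold for miR-351-5p, 1.46-fold for miR-542-5p, 1.41-fold for miR-503-3p and 1.18-fold for miR-450a-5p. Among the lower members it was 2.13 for miR-450b-3p, 3.33 for miR-351-3p and 4.06 for miR-322-3p. The median of this factor was 1.43 over the 8 members with at least 10 counts in every library and 1.73 over all 272 such mature entries. The 272 include the 8 members and were not matched to them for abundance, so the 2 medians do not show that the cluster was steadier. The 3 mature entries outside the cluster whose profile over the 3 libraries lay closest to that of the summed cluster were miR-125b-5p, miR-341-3p and miR-193b-3p, at Euclidean distances of 0.00897, 0.0201 and 0.0594 in centred log2 CPM. They are named from 264 candidates with 3 values each, so that close profiles among so many are no sign of a relation. Of the same 264, 6 lay closer to the summed cluster than miR-322-5p did, and 65 lay closer than miR-351-5p.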

How the data were processed

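Small RNA libraries of PND7 testis EVs were sequenced by the authors (BGISEQ-500), who filtered the reads, mapped the clean ones with Bowtie2 and cmsearch, and gave each read to a single class with miRBase ranked first. The submitters' processing notes name mm10. The deposited values are whole-number counts per small RNA and type. The percent of clean reads per class, and a further column with the counts scaled to the clean reads, were also deposited by the authors and were not used. Libraries had 25716952 to 27939308 clean reads.

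Counts were scaled to 1000000 mature (or hairpin) counts of each library. Log2 ratios within libraries used a pseudocount of 0.5 and a two-sided sign-flip permutation test, exact over the libraries, with Benjamini-Hochberg adjustment. An arm without an entry was counted as 0. Named entries were every match of the name rule, every counted miRNA with the seed of a member, the 3 nearest profiles, and Rfam families with a member's name. The members and lists were chosen with earlier results of these data known. Whether replicates came from separate litters is not stated, so p-values describe these libraries only. With 3 libraries the exact sign-flip p is 0.25 whenever the ratios all have the same sign, whatever their spread. Alternatives changed the denominator, the scaling, a minimum of 10 counts, the pseudocount, the type of entry, pooling and the replicates included. Recovery of a log2 ratio was tested on counts simulated with known changes. The sign-flip test was not run on simulated counts and was checked only on small sets of made-up values. Software was matplotlib 3.10.9 for plots, and SciPy 1.17.1, numpy 2.4.6 and pandas 2.3.3 under Python 3.11.15.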

Additional observations from a re-analysis of the deposited data

Results flagged for a closer look

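The catalogues also hold reads outside the mature and hairpin entries, in Rfam precursor families that carry the name of a member. They were listed because they are signal in data that the comparisons do not use, and there is no control library to set them against. The family mir-503 had 226, 344 and 64 reads in replicates 1, 2 and 3, with a mean of 211 ± 141 (SD, n = 3). The family mir-351 had 65, 78 and 122 reads, with a mean of 88.3 ± 29.9 (SD, n = 3). Both lie above the 3 counts that a count of 0 allows in every library. The first was lowest and the second highest in replicate 3.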

How the results depend on the processing

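Of the alternatives, those for the ratios of miR-503-3p to miR-503-5p and between the 4 leading entries were added after seeing the data. Of 60 alternative values of log2 ratios, 59 kept their direction, and none could pass 0.05. The ratio of miR-322-5p over miR-351-5p reversed to -0.42 with hairpin entries only. Outside these 60, the ratios of miR-322-5p over miR-542-5p and of miR-351-5p over miR-125a-5p also changed sign there, from 1.33 to -0.15 and from 1.06 to -1.02. The cause was not tested. The cluster's share of 0.805% became 0.506% with mature plus hairpin counts and 0.0289% with clean reads as the denominator, both by construction, and 1.06% with mature and hairpin entries summed. Without 1 replicate in turn it ran from 0.767% to 0.838%. The share of miR-322-5p in its seed group was 26.5%, 28.9% with both types summed and 33.8% with hairpin entries only. That of miR-351-5p was 33.9%, 27.6% and 24.8% in the same order. Of the 10 pairs in the same order, 3 remained when members needed 10 counts in every library, since that leaves 3 members. With both types summed, 8 of the 10 pairs kept an order. The number of first listed members with more hairpin than mature counts was 1, and between 1 and 3 without 1 replicate in turn. The log2 ratio of miR-542-3p over miR-542-5p could be taken without a pseudocount in replicate 3 alone. For single entries 15 of 88 alternatives moved CPM by more than the SD, all by a larger denominator. No comparison between groups was possible because there is a single group, so the only pairing was that of entries within a library. Depth limits miR-542-3p, miR-450b-5p and miR-450a-2-3p, each with 0 mature counts in at least 2 libraries.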
